A study of Mus musculus with 28 samples.

Results

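The genes described here code for the phase II conjugation enzymes of the liver, that is, the UDP-glucuronosyltransferases (Ugt1a, Ugt2a, Ugt2b and Ugt3a genes), the cytosolic sulfotransferases (Sult genes) and the cytosolic and mitochondrial glutathione S-transferases of the alpha, mu, theta, pi, kappa and omega classes (Gst genes). The rule that picks them uses the symbol alone. The count table held 63 such genes, of which 59 had at least 1 read in the 28 liver libraries, out of 32072 genes with any read. Sult1c1, Sult6b2, Ugt2a1 and Ugt2a2 were at 0 in all 28 libraries. Gstt4 and Ugt1a8 had too few reads to be tested, which left 57 members in every comparison.

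Phase II enzymes attach a polar group to drugs, hormones, bile pigments and toxins, so that these leave the cell and the body in bile or urine. UGTs transfer glucuronic acid from UDP-glucuronic acid in the endoplasmic reticulum, SULTs transfer sulfate from the cofactor PAPS in the cytosol, and GSTs couple electrophiles to glutathione. In rodents many of these genes are known to differ between male and female liver, and several are textbook targets of the xenobiotic sensors AhR, CAR, PXR and NRF2.

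RNA was measured by sequencing in whole livers of C57BL/6JOlaHsd mice aged 5 to 7 months, fed standard chow and fasted before collection. The 4 groups were wild-type (WT) males, males carrying a transgene that overexpresses the deacylase SIRT6 (SIRT6-tg), WT females and SIRT6-tg females, with 7 libraries in each. The transgenic mice came from 1 line and were littermates of the WT mice, so that an effect of the transgene and an effect of where it inserted cannot be told apart. The comparison of the genotypes asks which liver genes differ with whole-body SIRT6 overexpression, and the sexes were measured in parallel.

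Library totals ran from 18758863 to 35393069 gene counts. Levels are given as CPM, the share of a library's counts on a per-million scale, after scaling by the trimmed mean of M values (TMM), a method that assumes that most genes do not differ. In males the scaling factors of the genotypes did not overlap (1.06 to 1.17 in WT, 0.821 to 0.993 in SIRT6-tg), which makes male results depend on the scaling, as given below. Sirt6 itself was at 2.73 ± 0.511 CPM in WT males and 281 ± 55.2 in SIRT6-tg males, and at 2.88 ± 1.55 in WT females and 30.2 ± 12.5 in SIRT6-tg females (mean ± SD, n = 7 each). The log2 difference was 6.68 ± 0.30 (SE) in males and 3.39 ± 0.26 in females, and these differed from each other (difference 3.29 ± 0.35, adjusted p = 6.96e-06). The Sirt6 level of SIRT6-tg mice thus differed with sex wherever the sexes are compared below. Xist and Ddx3y separated all 28 libraries by their labelled sex. In 3 libraries the genes biased to the other sex were nonetheless higher than in the rest of the group: female WT 3 and female SIRT6-tg 7 had male-biased genes at 522 and 267 CPM in sum, against at most 206 and 142 in the others, and male WT 5 had female-biased genes at 204 CPM against at most 30.3. The female-biased sum was low in female WT 3 (726 CPM, others 1020 to 1301) but not in female SIRT6-tg 7 (1816, others 1221 to 2966). Counts of members are therefore also given without these 3 libraries.

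Between genes, levels are compared only per kilobase of exon sequence that no other gene overlaps. On that scale, averaged over the 4 groups, the GST mu gene Gstm1 was highest (664 CPM per kilobase), followed by Gsta3 of the alpha class (416), Ugt2b5 (401), Gstp1 of the pi class (401), Ugt2b36 (371) and Ugt1a1, the bilirubin-conjugating enzyme (321). Sult1a1, the phenol sulfotransferase, was the highest SULT (262), ahead of Sult2a8 (204). Gstt1 led the theta class (136), Ugt3a2 the UGT3A pair (129), Gstk1 the kappa and omega genes (80.0) and Sult3a1 the SULT3 to SULT6 genes (52.1). The Ugt1a genes share their last exons, so that only 385 of the 2224 exonic bases of Ugt1a1 are its own. Reads of near-identical copies are uncertain as well. Of the 50-base windows in the exons of each gene, 90.5% recurred in another gene for Gsta1, 62.1% for Sult2a2, 54.3% for Gstp2, 41.7% for Ugt2b5, 37.4% for Ugt2b38 and 28.8% for Gstm3, but none for Gstt1, Gsto1, Gstk1 and Sult2a7.

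The summed level of the UGT genes was 3395 ± 300 CPM in WT males and 4466 ± 454 in SIRT6-tg males, against 3284 ± 214 and 3538 ± 273 in WT and SIRT6-tg females. GST genes summed to 4666 ± 598 and 5953 ± 1148 CPM in WT and SIRT6-tg males, and to 3843 ± 315 and 3727 ± 833 in the corresponding females. For SULT genes the sums were 1094 ± 183 and 1510 ± 157 CPM in males and 1399 ± 197 and 1690 ± 239 in females. These sums are dominated by the few abundant genes of each family.

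Several clusters on the genome hold most of the members. The Sult2a genes lie side by side on chromosome 7 between positions 13623967 and 14494230, the Ugt2 genes on chromosome 5 (86889767 to 87490871) and the Ugt1a genes on chromosome 1 (88055388 to 88220002) of build GRCm38. RefSeq promoter windows of that build (GRCm38.p6), which reach from 250 bases before to 50 bases after each start site, were found for 51 members (61 windows). Motifs of 4 regulators were searched on both strands. GTTAAT, a part of the site of the hepatocyte factor HNF1, was present in 14 of the 61 member windows (22.95%) and in 7.10% of the 32851 windows of all genes. It was in 4 of the 8 SULT2 windows and in 4 of the 8 UGT1A windows. The 4 SULT2 windows hold similar stretches (printed below), so that the member share counts related sequence more than once. TTCNNNGAA, the core bound by STAT5, the factor that carries growth hormone pulses to sex-biased liver genes, was in 4 member windows (6.56%, against 8.30% of all windows). TGACNNNGC, the core of the antioxidant response element of NRF2, was in 3 (4.92% against 12.4%), and GCGTG, the core of the AhR element, in 13 (21.3% against 32.4%). Matches are a description of letters in these windows and not bound sites. GTTAAT was also in windows of Ugt1a1, Ugt2a3, Gsta3 and Sult1a1, which were well read in males. It was not in the window of Sult3a1, which was near 0 in males. The stretches around GTTAAT upstream of the 4 Sult2a genes that hold it are shown because these genes were at or near 0 in males (below). Capitals mark GTTAAT, every sequence runs 5′ to 3′ on the gene's strand, and the stretches lie at chr7:14123074-14123139 (minus strand), chr7:13989670-13989735 (minus), chr7:13623899-13623964 (plus) and chr7:14254916-14254981 (minus).
Sult2a3: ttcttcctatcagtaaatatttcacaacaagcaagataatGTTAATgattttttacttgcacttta
Sult2a4: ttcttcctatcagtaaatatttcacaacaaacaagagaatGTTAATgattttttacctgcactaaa
Sult2a5: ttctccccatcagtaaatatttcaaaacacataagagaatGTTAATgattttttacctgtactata
Sult2a6: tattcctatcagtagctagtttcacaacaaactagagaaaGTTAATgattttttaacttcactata

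Ugt2b5, Ugt2b37 and Ugt2b38 share a run of 62 identical bases just upstream of their start sites, in capitals, and their levels are nonetheless far apart (below). The stretches lie on the minus strand at chr5:87140341-87140460, chr5:87254789-87254908 and chr5:87424204-87424323.
Ugt2b5: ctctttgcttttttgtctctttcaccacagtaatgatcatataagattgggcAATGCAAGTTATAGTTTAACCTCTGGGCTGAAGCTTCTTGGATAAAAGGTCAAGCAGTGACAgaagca
Ugt2b37: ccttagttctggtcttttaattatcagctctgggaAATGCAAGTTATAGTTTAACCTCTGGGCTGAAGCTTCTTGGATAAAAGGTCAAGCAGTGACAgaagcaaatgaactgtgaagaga
Ugt2b38: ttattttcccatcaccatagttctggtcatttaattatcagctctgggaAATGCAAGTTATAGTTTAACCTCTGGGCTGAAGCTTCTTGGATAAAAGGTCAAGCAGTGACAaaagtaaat

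Of the stretches below, that of Sult3a1, a gene read almost only in females, holds the STAT5 core (chr10:33857582-33857641, plus strand). That of Gsta3, the most abundant alpha gene, holds the antioxidant response core (chr1:21240433-21240492, plus). Both cores are in capitals.
Sult3a1: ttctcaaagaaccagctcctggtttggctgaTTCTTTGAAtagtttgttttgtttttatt
Gsta3: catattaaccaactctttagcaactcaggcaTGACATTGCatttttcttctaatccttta

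In males, SIRT6-tg livers had higher levels of the 3 tested theta GSTs, of Gsto1 and Gstk1, of Gsta3, of 4 Ugt2 genes and of Sult2a7 and Sult2a8, and lower levels of the mu genes Gstm2 and Gstm3. This made 14 of 57 members with an adjusted p under 0.05 (edgeR quasi-likelihood test, Benjamini-Hochberg adjustment over the 21583 genes tested), or 24.6%, against 20.7% of all genes tested. Of these, 12 were higher (21.1% of members, against 9.68% of all genes) and 2 lower (3.51%, against 11.0%). An unadjusted p under 0.05 was found for 25 of the 57 members, against 32.6% of all genes. The median log2 fold change of the members was 0.31, against 0.06 for all genes tested. For 8 members the males had at most 8 reads per group (Sult2a1 to Sult2a6, Sult3a1 and Sult3a2), and over the other 49 the median was 0.34, with 36 above 0. The ranges of the genotypes did not overlap for 4 of the 57 members (Gstt1, Gsto1, Ugt2a3 and Sult2a7), all higher. That share was close to the 6.97% of all genes with separate ranges, while 2.60% of all genes were separate in that direction. Without the 3 libraries named above, 13 members were higher and 2 lower.

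**Figure D1:**
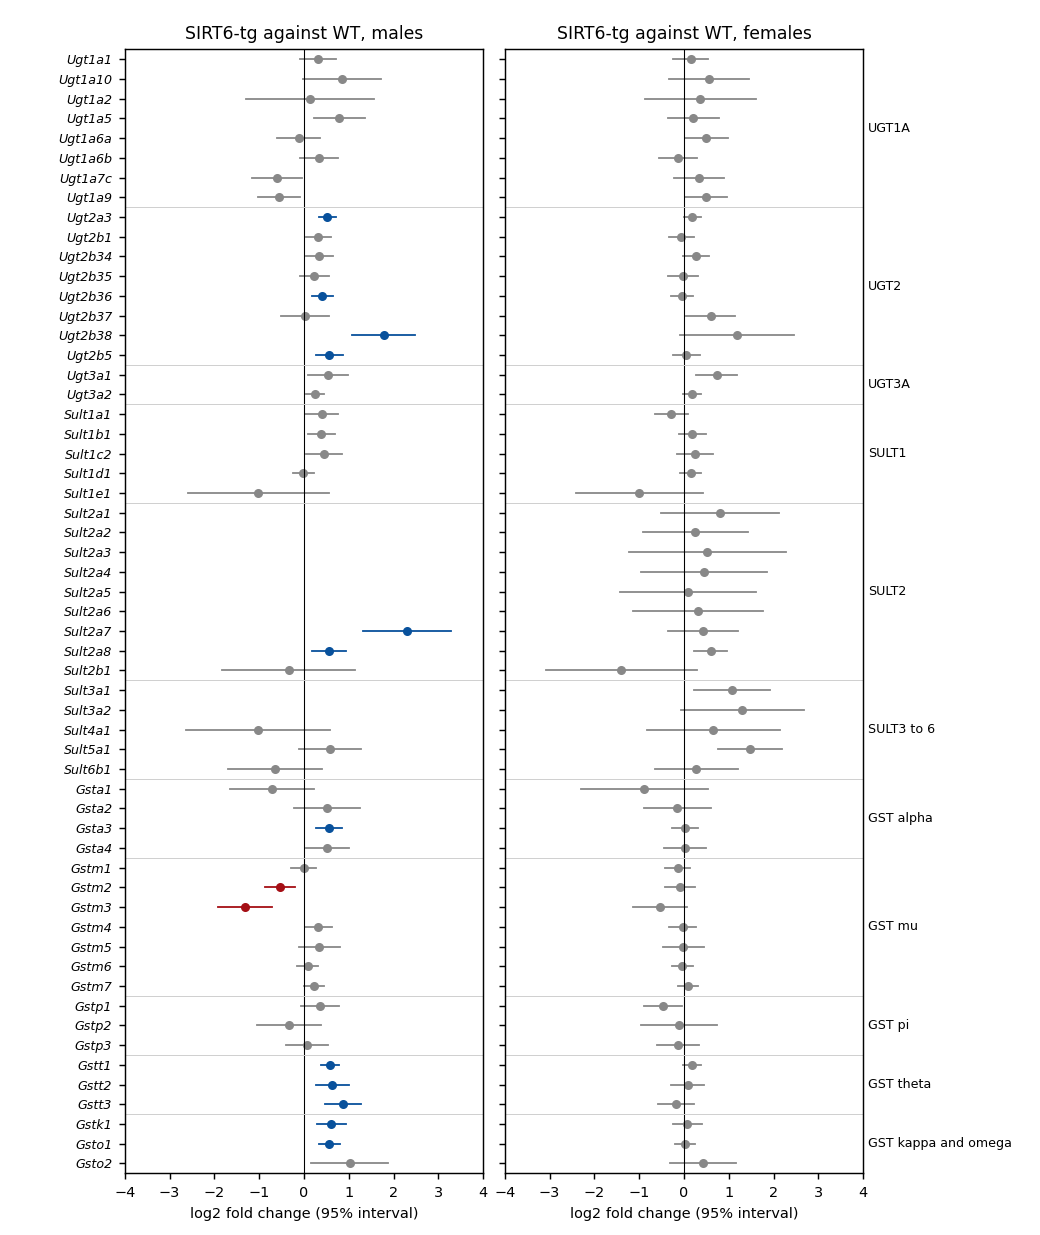
Log2 fold change of SIRT6-tg against WT (TMM scaling, points) with 95% intervals (lines) for the 57 members tested, by class, in males (left) and females (right). Blue points had adjusted p under 0.05 and were higher, red points were lower, and grey points were not under 0.05. In males the 8 members with at most 8 reads per group are left blank. All 8 UGT2 genes and all 3 theta genes lie right of 0 in males (with library size alone 6 of the 8 and all 3 do), 2 mu genes are red, and no point is coloured in females.

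The theta GSTs, which act on small halogenated and epoxide substrates, are neighbours on chromosome 10. Gstt1 (75783813 to 75798584) ran from 139 to 186 CPM in WT males (median 153) and from 186 to 272 in SIRT6-tg males (median 229). Every SIRT6-tg library lay above every WT library, by little at the nearest pair, and the log2 fold change was 0.58 ± 0.10 (SE, n = 7 and 7, adjusted p = 5.95e-05). Gstt3 was at 31.0 to 62.1 CPM in WT males (median 34.04) and at 44.4 to 111 in SIRT6-tg males (median 70.6). Here 4 of the 7 SIRT6-tg libraries were above the highest WT library, and the log2 fold change was 0.87 ± 0.21 (adjusted p = 0.00276). Gstt2 lay between 62.3 and 95.1 CPM in WT males (median 72.5) and between 74.4 and 166 in SIRT6-tg males (median 112). The groups overlapped in 1 SIRT6-tg library, with a log2 fold change of 0.63 ± 0.19 (adjusted p = 0.0160).

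Omega and kappa GSTs are structurally distant relatives, the first with thioltransferase and dehydroascorbate reductase activity and the second found in mitochondria and peroxisomes. Gsto1 on chromosome 19 was at 68.3 to 87.6 CPM in WT males (median 75.8) and at 102 to 129 in SIRT6-tg males (median 108). The ranges were clearly apart, and the log2 fold change was 0.56 ± 0.12 (adjusted p = 0.000611). Gstk1 on chromosome 6 ran from 76.6 to 125 CPM in WT males (median 90.7) and from 106 to 227 in SIRT6-tg males (median 132). The highest value belonged to SIRT6-tg male 7, and the next was 155. Its log2 fold change was 0.61 ± 0.17 (adjusted p = 0.00870), and 0.45 without that library. Gsto2, the neighbour of Gsto1, stayed under 0.5 CPM in both male groups and did not pass the test (log2 fold change 1.02 ± 0.44, adjusted p = 0.0989).

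In the alpha class, which detoxifies lipid peroxidation products and binds hydrophobic ligands, 1 of 4 genes passed the test. Gsta3 lay between 1394 and 1870 CPM in WT males (median 1677) and between 1750 and 3589 in SIRT6-tg males (median 2317). All but 1 of the SIRT6-tg libraries exceeded the highest WT library, and the log2 fold change was 0.55 ± 0.15 (adjusted p = 0.00781). Gsta4, which acts on hydroxynonenal, had a similar fold change without passing (0.52 ± 0.24, adjusted p = 0.125). Gsta2 did not pass either (0.51 ± 0.38), nor did Gsta1 (-0.72 ± 0.48), whose exon sequence is mostly shared with a near-identical gene.

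Mu GSTs form a cluster of 7 on chromosome 3, of which 2 neighbours fell in males. Gstm3 was at 54.6 to 261 CPM in WT males (median 79.5) and at 30.0 to 56.6 in SIRT6-tg males (median 51.02). The WT values were widely spread, with male 6 far above the rest, and 5 of 7 SIRT6-tg libraries lay below all WT libraries. The log2 fold change was -1.31 ± 0.31 (adjusted p = 0.00288), and -0.97 without WT male 6. Gstm2 ran from 41.1 to 80.0 CPM in WT males (median 52.3) and from 28.1 to 47.8 in SIRT6-tg males (median 39.7). Its groups overlapped, with 4 SIRT6-tg libraries under the lowest WT library, and the log2 fold change was -0.54 ± 0.17 (adjusted p = 0.0222). That call was lost without WT male 6 or SIRT6-tg male 1 (adjusted p up to 0.0607). Gstm1, the most abundant mu gene, was at 698 to 1395 CPM in WT males (median 966) and at 799 to 1291 in SIRT6-tg males (median 991). Its log2 fold change was -0.01 ± 0.15 (adjusted p = 0.978), and the 95% interval of the difference was -0.30 to 0.28. The other 4 mu genes had log2 fold changes of 0.08 to 0.34 and did not pass, and scaled to the hepatocyte list no mu gene was above 0. None of the 3 pi genes passed the test, with Gstp1 at 538 to 1212 CPM in WT males (median 998) and 608 to 1697 in SIRT6-tg males (median 1287) and a log2 fold change of 0.36 ± 0.22 (adjusted p = 0.256).

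UGT2 enzymes glucuronidate steroids, bile acids and many drugs. In SIRT6-tg males all 8 tested genes of the cluster had a log2 fold change above 0 under TMM (median 0.38), 6 with library size alone and 5 with the hepatocyte list described below. Of the 8, 4 rose under TMM. Ugt2a3 lay between 241 and 308 CPM in WT males (median 291) and between 331 and 480 in SIRT6-tg males (median 411). The 2 ranges did not touch, and the log2 fold change was 0.52 ± 0.10 (adjusted p = 0.000190). For Ugt2b5, 626 to 823 CPM in WT males (median 667) compared with 774 to 1361 in SIRT6-tg males (median 974), with 1 SIRT6-tg library inside the WT range. The log2 fold change was 0.56 ± 0.16 (adjusted p = 0.00885). Ugt2b36 was at 657 to 888 CPM in WT males (median 709) and at 748 to 1326 in SIRT6-tg males (median 947). Of its SIRT6-tg libraries 5 were above all WT libraries, and the log2 fold change was 0.41 ± 0.12 (adjusted p = 0.0168). The call was lost in 4 of 28 fits that left out 1 library and under upper quartile (0.33), library size alone (0.12) and the hepatocyte list (0.04, adjusted p = 0.794).

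The largest change in the UGT2 class belonged to a scarce gene. Ugt2b38 ran from 0.452 to 5.98 CPM in WT males (median 3.98) and from 3.96 to 22.3 in SIRT6-tg males (median 12.8). The lowest WT value was that of male 5, and 6 of 7 SIRT6-tg libraries lay above all WT libraries. The log2 fold change was 1.78 ± 0.36 (adjusted p = 0.000540), and 1.58 without the 3 libraries named above. Ugt2b37, whose upstream sequence shares the 62-base run, had 0.602 to 1.57 CPM in WT males and 0.660 to 1.62 in SIRT6-tg males, with a log2 fold change of 0.02 ± 0.28 (adjusted p = 0.973). Thus, in males, Ugt2b5 was abundant, Ugt2b38 scarce and Ugt2b37 near 1 CPM. Ugt2b1, Ugt2b34 and Ugt2b35 had log2 fold changes of 0.32, 0.34 and 0.23 and did not pass.

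None of the 8 tested UGT1A genes, which handle bilirubin, phenols and many drugs, passed the test in males. Ugt1a1 was at 35.7 to 131 CPM in WT males (median 85.3) and at 55.7 to 128 in SIRT6-tg males (median 108), with a log2 fold change of 0.31 ± 0.20 (adjusted p = 0.313). Nearest to the threshold was Ugt1a5 (0.79 ± 0.29, adjusted p = 0.0544), while Ugt1a9 pointed the other way (-0.55 ± 0.24, adjusted p = 0.104). UGT3A enzymes use sugars other than glucuronic acid as donors. Ugt3a2 lay between 229 and 420 CPM in WT males (median 341) and between 358 and 464 in SIRT6-tg males (median 387), a log2 fold change of 0.24 ± 0.10 that did not pass (adjusted p = 0.0979).

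Of the SULT2 genes, which sulfate hydroxysteroids and bile acids, 2 neighbours at the end of the cluster rose in males. Sult2a7 (14465051 to 14494230) was scarce, at 0.379 to 1.46 CPM in WT males (median 0.669) and at 2.62 to 5.25 in SIRT6-tg males (median 3.22). No WT library reached the lowest SIRT6-tg library, and the highest WT value was that of male 5. The log2 fold change, 2.30 ± 0.50 (adjusted p = 0.00147), was the largest of the 14. Sult2a8 (14410686 to 14446769), an abundant bile acid sulfotransferase of mouse liver, ran from 357 to 887 CPM in WT males (median 678) and from 809 to 1121 in SIRT6-tg males (median 988). Only the lowest SIRT6-tg library overlapped the WT range, and the log2 fold change was 0.56 ± 0.19 (adjusted p = 0.0348). This call was lost in 8 of 28 fits that left out 1 library, with no filter on low counts, and under every scaling other than TMM (RLE adjusted p = 0.0526, hepatocyte list adjusted p = 0.602). Sult2a1 to Sult2a6 were at or near 0 in all 14 male livers and give no genotype comparison in males. No SULT1 gene passed the test, with Sult1a1 at 188 to 321 CPM in WT males (median 254) and 217 to 477 in SIRT6-tg males (median 330), a log2 fold change of 0.39 ± 0.19 (adjusted p = 0.157).

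**Figure D2:**
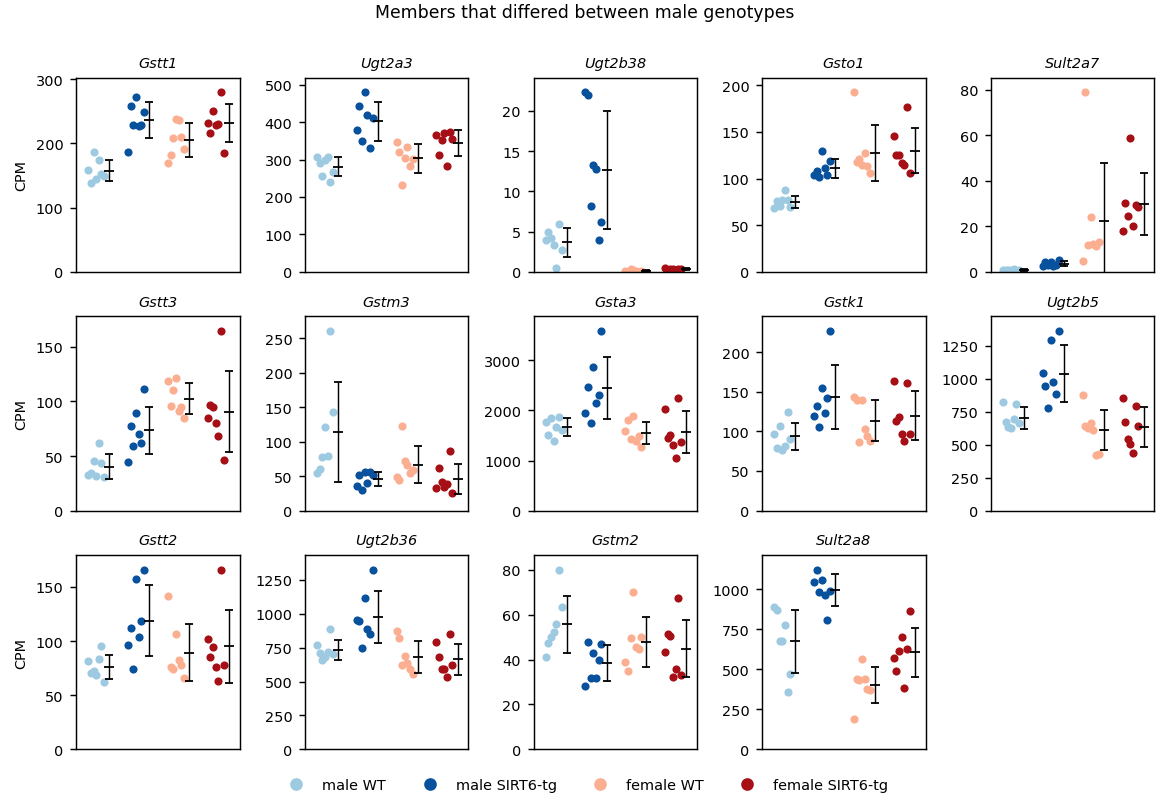
CPM (TMM scaling, linear axes from 0) of the 14 members that differed between male genotypes, in all 28 livers. Points are libraries and the bars give mean ± SD (n = 7 per group). In Gstt1, Ugt2a3, Gsto1 and Sult2a7 the dark blue SIRT6-tg males lie above all light blue WT males, and in all 14 members the female genotypes (orange and red) overlap.

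The male counts depended on how libraries were scaled. With the scalings RLE and upper quartile, 11 and 10 members were higher (without Sult2a8, and without Sult2a8 and Ugt2b36) and 2 lower. With library size alone, 5 were higher (Gstt1, Gstt3, Gsto1, Ugt2b38 and Sult2a7) and 4 lower (Gstm2, Gstm3, Ugt1a7c and Ugt1a9). The last scaling used the mean log2 CPM of a list of proteins secreted by hepatocytes (the hepatocyte list), each gene weighted alike. With it, 2 were higher (Ugt2b38 and Sult2a7) and 3 lower (Gstm2, Gstm3 and Ugt1a9). Ugt2b38, Sult2a7, Gstm2 and Gstm3 thus passed under all 5 scalings, and none of the 14 members changed sign under any. The median of all genes tested moved from 0.06 under TMM to -0.22 with library size alone and -0.29 with the hepatocyte list, and the members' median from 0.31 to 0.02 and -0.003. Among all genes called, 46.8% were higher under TMM, 35.7% under RLE, 26.2% under upper quartile, 4.89% with library size alone and 2.86% with the hepatocyte list. Class medians of GST theta, GST alpha, kappa and omega, UGT2, UGT3A and SULT1 stayed above 0 throughout. With the hepatocyte list those of SULT1, UGT2 and UGT3A were barely so (0.004, 0.019 and 0.042). Medians of GST mu and GST pi were above 0 under TMM (0.08 and 0.07). They were just below 0 under upper quartile (-0.003 and -0.017) and lower with library size alone (-0.21 and -0.24). The UGT1A median was 0.23 under TMM and -0.04 with library size alone.

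**Figure D3:**
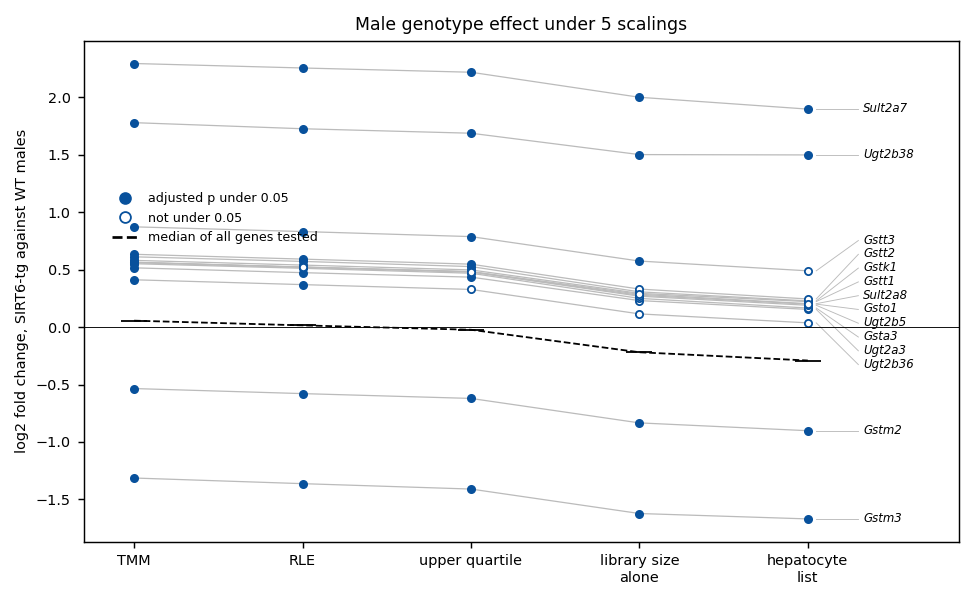
Log2 fold change of SIRT6-tg against WT males (vertical axis) for the 14 members called under TMM, under 5 scalings (horizontal axis). Filled points had adjusted p under 0.05, open points did not, grey lines join a gene, and the dashed line is the median of all genes tested. All 14 lines move down from TMM to the hepatocyte list, where only Sult2a7, Ugt2b38, Gstm2 and Gstm3 are still filled and the median of all genes is -0.29.

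Marker genes of some other liver cell types moved with the male genotypes, and those of others mostly did not pass under TMM. Fewer cells of a type and less RNA per cell cannot be told apart in whole liver. All 8 macrophage genes of the list were lower in SIRT6-tg males (summed 305 to 512 CPM, against 354 to 1183 in WT), as were all 8 T cell genes (5.26 to 8.13 against 15.3 to 46.3, with no overlap), all 6 stellate cell genes (241 to 333 against 351 to 584) and 3 of 4 B cell genes. Of 14 hepatocyte secreted protein genes, 8 were higher in SIRT6-tg males under TMM and none with library size alone (median under TMM log2 fold change 0.40, summed 147300 to 206600 CPM against 123900 to 158400). The macrophage, T cell and stellate counts were the same under all 5 scalings. Under TMM, 1 of 6 sinusoidal endothelium genes was lower, and no cholangiocyte (of 5) or pancreas gene (of 4) passed. Of 2 gut or gallbladder genes, 1 was higher (Fabp2). With library size alone, 3 endothelium and 2 cholangiocyte genes were lower. None of these marker genes was at 0 in all libraries of a group. Their part in the members' differences was not tested. Among genes that mark liver zones, under TMM 4 of 8 periportal genes were higher, and of 8 pericentral genes 1 was higher and 1 lower. With library size alone, 2 periportal genes were higher and 4 pericentral genes lower. With the hepatocyte list, no periportal gene passed and 3 pericentral genes were lower.

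In females, no member passed the test between genotypes (0 of 57, against 0.0278% of all genes, 6 in number), and 8 members had an unadjusted p under 0.05, against 5.62% of all genes. DESeq2 called 1 member, Sult5a1. No member had separate ranges, against 0.0834% of all genes, and 38 of 57 log2 fold changes were above 0, with a median of 0.15 against 0.003 for all genes tested. The transgene itself was read at a lower level in females than in males (above). Sult5a1, a sulfotransferase of little known function, was at 1.59 to 13.1 CPM in WT females (median 4.25) and at 5.45 to 22.8 in SIRT6-tg females (median 12.6). The groups overlapped, and the log2 fold change was 1.47 ± 0.37 (adjusted p = 0.219 with edgeR, 0.0181 with DESeq2). Sult2a8 ran from 189 to 565 CPM in WT females (median 434) and from 382 to 861 in SIRT6-tg females (median 611), with a log2 fold change of 0.59 ± 0.19 (adjusted p = 0.453), close in size to that in males. Ugt3a1 was at 19.2 to 38.9 and 28.9 to 62.2 CPM (0.73 ± 0.23, adjusted p = 0.440).

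In some female groups single libraries had very low values. Sult3a1 was at 1.25 to 163 CPM in WT females (median 81.5) and at 114 to 255 in SIRT6-tg females (median 156). The lowest of these values was that of WT female 3, and the log2 fold change was 1.06 ± 0.43 (adjusted p = 0.732), or 0.85 without the 3 libraries named above. Sult2a1 to Sult2a6 together summed to 77.3, 186, 0.122, 23.04, 22.4, 211 and 146 CPM in WT females 1 to 7, and to 188, 172, 198, 174, 89.3, 117 and 6.15 in SIRT6-tg females 1 to 7. WT female 3, near 0, and SIRT6-tg female 7 were thus the lowest of their groups. The log2 fold change of Sult2a1 in females was 0.79, and 0.78 without the 3 libraries named above. Among the theta, kappa, omega and alpha genes that rose in males, Gstt3 had a log2 fold change of -0.18 ± 0.21 in females, Gsto1 0.03 ± 0.12, Gsta3 0.02 ± 0.15, Gstk1 0.08 ± 0.17, Gstt2 0.09 ± 0.19 and Gstt1 0.18 ± 0.10. Of the UGT2 genes that rose in males, Ugt2a3 was at 0.19 ± 0.10, Ugt2b5 at 0.05 ± 0.15, Ugt2b36 at -0.04 ± 0.12 and Ugt2b38 at 1.18 ± 0.65, all with adjusted p above 0.9.

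A difference between males and females in the effect of the genotype passed the test for 1 of 57 members (1.75%, higher in males), against 5.04% of all genes tested, of which 1.20% were higher in males and 3.84% lower. These member counts changed with the setting, to 0 higher and 2 lower with library size alone, 0 higher and 4 lower with the hepatocyte list, and 5 higher without SIRT6-tg female 6. At an unadjusted p under 0.05 there were 13 members, against 18.8% of all genes. Gstt3 had a male effect larger than the female effect by 1.05 ± 0.29 on the log2 scale (adjusted p = 0.0308). WT females had 85.1 to 122 CPM of Gstt3 (median 95.4), and SIRT6-tg females 46.0 to 165 (median 84.8). WT males thus lay below all WT females, and the SIRT6-tg males overlapped with both female groups. This call was lost in 7 of 28 fits without 1 library and under 3 scalings. Nearest to the threshold were Gsto1 (0.54 ± 0.16, adjusted p = 0.0522), Ugt1a9 (-1.04 ± 0.34, adjusted p = 0.0721), Gstt1 (0.40 ± 0.14, adjusted p = 0.0911) and Sult2a7 (1.87 ± 0.64, adjusted p = 0.0929). DESeq2 also called Gsto1 and Sult2a7 (higher) and Ugt1a9 (lower). For all other members that passed in males only, a difference between the sexes was not shown.

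Sex set larger differences than genotype. In WT mice 25 of 57 members (43.9%) differed between males and females, against 12.4% of all genes tested, with 7 higher in males (12.3%, against 6.66%) and 18 lower (31.6%, against 5.71%). In SIRT6-tg mice 27 differed (47.4%, against 23.1%), 12 higher (21.1%, against 12.9%) and 15 lower (26.3%, against 10.2%). In both genotypes, 7 members were higher and 13 lower in males, and none was called in opposite directions. The 2 comparisons share no library, but both come from the same fit. The matching counts over all genes are not given, so it is not shown whether members differ from other genes in this. Ranges did not overlap for 12 members in WT (2.96% of all genes) and 15 in SIRT6-tg mice (6.13%). Without the 3 libraries that stood apart, 9 were higher and 18 lower in WT males, and 11 and 14 in SIRT6-tg males. Scaled by library size alone, 13 were higher and 16 lower in WT males. Of all genes called in WT mice, 86.8% were then higher in males, against 53.8% under TMM.

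The sulfotransferases held most of the members lower in males, 12 of 18 in WT and 11 of 15 in SIRT6-tg mice. In WT, Sult2a1 had 2 reads in all 7 males together and 0.0611 to 85.3 CPM in females (median 23.2). Ratios are of pooled CPM, the summed counts of a group over its summed scaled library totals. The female to male ratio was 3911 (95% interval 1082 to 32300, for counting error only) in WT and 11270 (2022 to 445200) in SIRT6-tg mice. In SIRT6-tg mice the females had 1.35 to 115 CPM (median 74.2) and the males 1 read. For Sult2a2 the ratios were 2922 (809 to 24140) and 5940 (1066 to 234700). Sult2a3, Sult2a4, Sult2a5 and Sult2a6 had no read in any of the 14 males. Set against a floor of 3 counts over the male group, they were at least 390-fold, 354-fold, 792-fold and 428-fold higher in WT females, and at least 479-fold, 407-fold, 708-fold and 447-fold higher in SIRT6-tg females. Their promoter windows with the shared GTTAAT stretch are those printed above.

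Sult3a1, which sulfonates amines, had 8 reads in the WT males and 4 in the SIRT6-tg males, with female to male ratios of 1969 (999 to 4561) and 7019 (2741 to 25760). Its neighbour Sult3a2 had none in males and was at least 233-fold and 474-fold higher in WT and SIRT6-tg females. Sult2a7 was read in every liver, with 4.95 to 79.0 CPM in WT females (median 12.2) and 17.7 to 58.7 in SIRT6-tg females (median 28.6). It was lower in males by a log2 difference of -4.91 ± 0.51 in WT (adjusted p = 1.30e-07) and -3.04 ± 0.44 in SIRT6-tg mice (adjusted p = 1.67e-05), with no overlap in either. Sult2a8 went the other way, with a male minus female log2 difference of 0.75 ± 0.19 in WT (adjusted p = 0.00838) and 0.72 ± 0.19 in SIRT6-tg mice (adjusted p = 0.00718). The 2 genes are neighbours of the female-biased cluster. Of the SULT1 genes, Sult1d1, which acts on catecholamines and other small phenols, was at 92.8 to 140 CPM in WT males (median 130.4) and 157 to 293 in WT females (median 236), a log2 difference of -0.88 ± 0.12 (adjusted p = 4.66e-06), and -1.05 ± 0.12 in SIRT6-tg mice (adjusted p = 1.48e-07). Sult1a1 was lower in WT males (-1.05 ± 0.19, adjusted p = 0.000353), with 367 to 888 CPM in WT females (median 443), and did not pass in SIRT6-tg mice (-0.38, adjusted p = 0.152) except with library size alone and the hepatocyte list (-0.49 and -0.64).

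**Figure D4:**
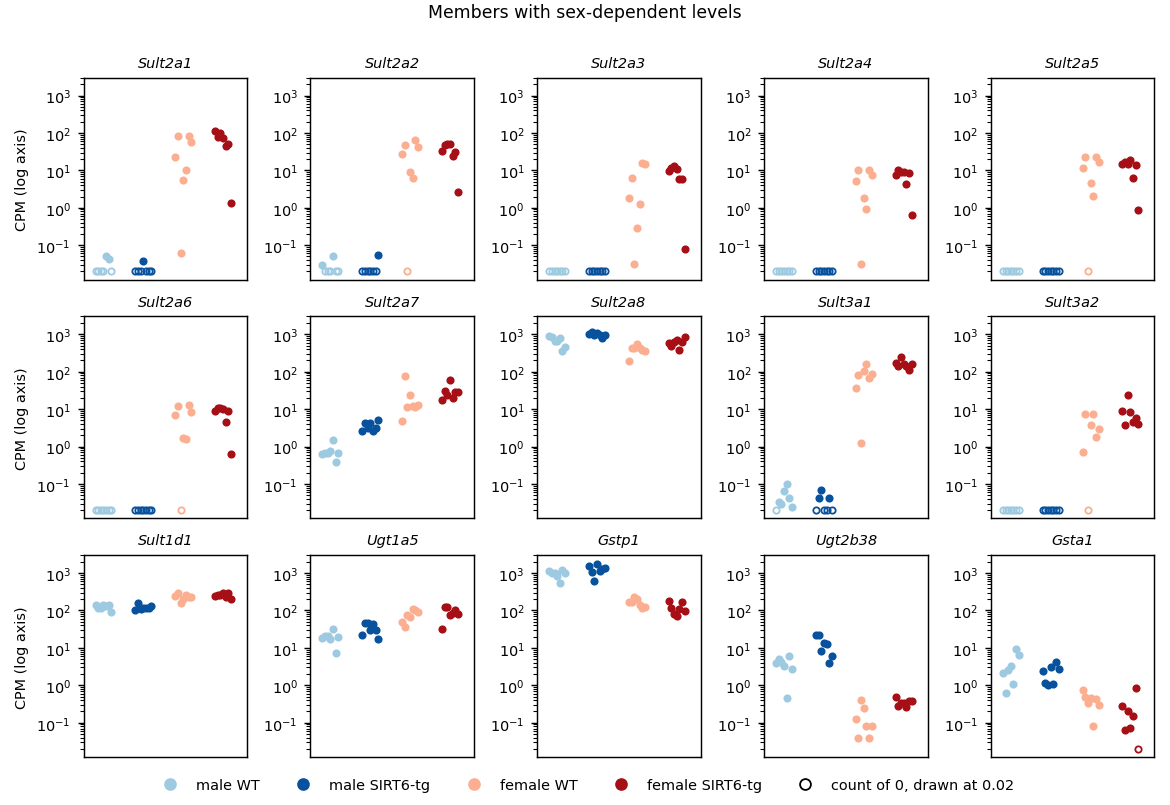
CPM (log axis) of 15 members, shown by their male and female groups. Points are libraries (7 per group) and open circles are counts of 0 at a fixed place under the axis values. Sult2a1 to Sult2a6, Sult3a1 and Sult3a2 are at or near 0 in all 14 males, WT female 3 is the low orange point, and Gstp1 and Ugt2b38 are higher in males of both genotypes.

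Among the GSTs, Gstp1, a pi gene that is known for its male bias in mouse liver, was the most abundant (per kilobase) of the members higher in males in both genotypes. WT females had 115 to 226 CPM (median 164) and SIRT6-tg females 71.6 to 181 (median 109), far below all males. The male minus female log2 difference was 2.56 ± 0.23 in WT (adjusted p = 2.66e-09) and 3.39 ± 0.24 in SIRT6-tg mice (adjusted p = 7.15e-12). Gstp2 was also higher in males (2.21 in WT, 1.98 in SIRT6-tg mice), but its exon sequence is in part shared with other genes. Gsta1 followed at a low level, with 0.633 to 9.27 CPM in WT males (median 2.55) and at most 0.736 in WT females, a log2 difference of 3.17 ± 0.57 (adjusted p = 0.000303). Theta and omega genes had the opposite bias in WT livers, where Gstt1 (-0.38 ± 0.10), Gstt3 (-1.35 ± 0.21), Gsto1 (-0.77 ± 0.12) and Gsto2 (-1.30 ± 0.42) were lower in males. With library size alone Gstt1 (-0.19) and Gsto2 (-1.12) did not pass. In SIRT6-tg livers none of these 4 passed the test between the sexes under TMM, whereas Gsto1 did with library size alone (-0.33, adjusted p = 0.0148) and Gsto1 (-0.45, adjusted p = 0.00412) and Gstt3 (-0.54, adjusted p = 0.0340) did with the hepatocyte list. All 4 alpha genes were higher in SIRT6-tg males than in SIRT6-tg females, although Gsta4 did not pass under upper quartile (adjusted p = 0.0610). Except for Gstt3, the change of the sex difference between genotypes did not pass the test for these 8 genes. It is the same test as that of the genotype effect between the sexes.

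Of the UGTs, Ugt2b38 was almost confined to males, with 0.0383 to 0.397 CPM in WT females (median 0.0842) and 0.267 to 0.498 in SIRT6-tg females (median 0.333). The log2 difference was 4.56 ± 0.51 in WT (adjusted p = 3.73e-07) and 5.15 ± 0.46 in SIRT6-tg mice (adjusted p = 2.24e-09), and no ranges overlapped. Ugt2b1 was higher in males by 0.73 ± 0.14 in WT and by 1.11 ± 0.14 in SIRT6-tg mice (adjusted p = 0.000688 and 1.44e-06). Of the 8 UGT1A genes tested, 2 were lower in WT males than in WT females. Ugt1a5 was at 7.42 to 32.9 CPM in WT males (median 19.3) and at 35.4 to 110 in WT females (median 76.9), with a log2 difference of -1.97 ± 0.30 (adjusted p = 4.17e-05), and -1.39 ± 0.29 in SIRT6-tg mice (adjusted p = 0.00110). Ugt1a1 was lower in males by -0.85 ± 0.20 and -0.69 ± 0.20 on the log2 scale (adjusted p = 0.00511 and 0.0146), and in WT mice it no longer passed with the hepatocyte list (-0.64, adjusted p = 0.115).

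Other genes of the conjugation pathway were read beside the members. Of 15 tested conjugating enzymes that the symbol rule leaves out, 10 were higher and 1 lower in SIRT6-tg males under TMM, and 1 (Inmt) and 2 with library size alone. They included Gstz1 (log2 fold change 0.42 ± 0.08, adjusted p = 0.000481), an enzyme of tyrosine breakdown, Baat (0.41 ± 0.08, adjusted p = 0.000528), which conjugates bile acids to amino acids, Glyat (0.60 ± 0.13, adjusted p = 0.00131), which conjugates benzoate to glycine, and Inmt (0.82 ± 0.21, adjusted p = 0.00428). Mgst2, a membrane-bound glutathione transferase, fell by 1.20 ± 0.31 on the log2 scale. Of 13 genes of cofactor supply, 4 were higher and none lower under TMM, and none higher and 1 lower (Slc35b3) with library size alone. These were Bpnt1, which clears the by-product of sulfation (0.32 ± 0.07, adjusted p = 0.00108), Slc35d2, a nucleotide sugar carrier (0.37 ± 0.10), Gclm, the modifier subunit of glutathione synthesis (0.29 ± 0.08), and Ugp2, which makes UDP-glucose (0.34 ± 0.11). Ugdh, which makes UDP-glucuronic acid, did not pass (0.05 ± 0.15), nor did the PAPS synthases Papss1 (0.22 ± 0.09) and Papss2 (0.07 ± 0.18). Of 9 genes of export and deconjugation, the carriers Abcg2 (0.30 ± 0.09) and Abcc6 (0.29 ± 0.10) were higher, and the glutathione conjugate peptidases Ggt1 (-1.36 ± 0.47) and Dpep1 (-1.29 ± 0.34) lower, and with library size alone only the peptidases and Gusb passed. In females none of the genes of these 3 lists passed the test.

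Regulators of these genes and their reporter genes were read in the same fit. None of 16 regulators passed between male genotypes under TMM, and Ahr and Nfe2l2 were lower with library size alone. Under TMM, Nr1i2 (PXR) had a log2 fold change of 0.24 ± 0.12, Nr1i3 (CAR) of 0.13 ± 0.20, Nfe2l2 (NRF2) of -0.08 ± 0.09 and Ahr of -0.28 ± 0.14. The difference between the sexes passed for Ahr (-0.72 ± 0.20, adjusted p = 0.0348). Of 6 reporter genes of CAR and PXR, Cyp2b10 (1.36 ± 0.38, adjusted p = 0.0106) and Aldh1a1 (0.51) were higher in SIRT6-tg males under TMM, Cyp2b10 alone with library size alone and none with the hepatocyte list. Of 8 NRF2 reporter genes, Ephx1 (0.30) was higher under TMM and RLE but not under the other 3 scalings, and Hmox1 (-0.84), Srxn1 (-0.70) and Slc7a11 (-3.68) were lower under all 5. Of 5 AhR reporter genes, Cyp1b1 (-1.92) and Ahrr (-1.47) were lower under all 5.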

How the data were processed

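Liver RNA was read in 28 libraries as gene counts. Per the labels and the methods, the authors made single-end NEBNext Ultra libraries, aligned reads with STAR 2.5.0a to mm10 (Gencode vM12), kept uniquely mapped reads and counted them per gene with HTSeq. The strand setting is not given in the sources used here. They deposited raw counts (49585 rows). From these, genes with a mean of at least 0.5 after DESeq2 size factors (21583) were fitted in 1 edgeR 4.0.16 model over all 28 libraries (R 4.3.3, TMM, robust quasi-likelihood test), with Benjamini-Hochberg adjustment and a threshold of 0.05. CPM are counts over TMM-scaled library totals. DESeq2 1.42.0, other scalings and filters, a replicate block and leaving out each library were alternatives.

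Members and lists were chosen with earlier results of these data known. Named in full were members past the threshold in a genotype comparison or in the difference between the sexes, the most abundant member of each class, and, between the sexes, members with separate ranges and an absolute log2 fold change of at least 1. The values of Sult5a1, Ugt3a1 and other members outside this rule were chosen after they were seen. No pair of libraries agreed within sampling noise (chi-square per gene at least 8.48 within a group). Per the study's description each library is 1 mouse. Intervals on ratios cover counting error only. The scripts were tested on simulated data. Exonic lengths came from Gencode vM21 and promoter windows from RefSeq.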

Additional observations from a re-analysis of the deposited data

Results flagged for a closer look

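For the 31 members named in full, each group was checked for 1 library far from the other 6. The gap, as a share of the group's range, passed Dixon's critical value in 12 of 108 groups tested. Chance marks about 1 in 20 only for independent, normally distributed values, which CPM of genes in the same libraries need not be. Every library marked was the highest of its group. SIRT6-tg female 6 was marked for Gstt3 (165 CPM, others 46.0 to 96.4), Gstt2 (166, others 63.5 to 102), Sult1a1 (686, others 306 to 458) and Gsta1 (0.868, others 0 to 0.272). Gstm3 stood apart in WT male 6 (261 CPM, others 54.6 to 143) and in WT female 3 (122, others 43.8 to 72.5). Sult2a7 did so in WT female 2 (79.0 CPM, others 4.95 to 24.04), SIRT6-tg female 4 (58.7, others 17.7 to 30.4) and WT male 5 (1.46, others 0.379 to 0.767). The remaining ones were Gstk1 in SIRT6-tg male 7 (227 CPM, others 106 to 155), Gsto1 in WT female 1 (193, others 106 to 128) and Sult3a2 in SIRT6-tg female 3 (23.9, others 3.83 to 8.69).

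Between the sexes, the genotype effect on Gstt3 differed by 1.05 on the log2 scale (male minus female effect, interaction term of the edgeR model, adjusted p = 0.0308).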

How the results depend on the processing

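No fold change of a called member among the 31 named in full changed direction under any alternative. Called members outside those 31 were not followed through every alternative. The male class medians of GST mu, GST pi and UGT1A changed sign with library size alone, and those of GST mu and GST pi also under upper quartile (above). Between male genotypes, the members higher fell from 12 to 5 with library size alone and to 2 with the hepatocyte list, and those lower went from 2 to 4 with library size alone. Leaving out 1 library gave 9 (without WT male 7) to 14 (without WT male 5) members higher and 1 to 2 lower. Between female genotypes, DESeq2 and the hepatocyte list each gave 1 member higher (Sult5a1), as did leaving out WT female 4 (range 0 to 1, and 0 to 0 lower). For the difference between the sexes, the count higher was 0 with upper quartile, library size alone, the hepatocyte list or no filter on low counts, and 3 with DESeq2, and the count lower was 1 with upper quartile, filterByExpr or DESeq2, 2 with library size alone and 4 with the hepatocyte list. Leaving out 1 library gave 0 to 5 higher (5 without SIRT6-tg female 6: Gstt1, Gstt3, Gsto1, Gsta3 and Sult1a1) and 0 to 1 lower. Members higher in WT males than in WT females numbered 13 with library size alone and 13 with the hepatocyte list. Of all genes called there, 86.8% and 91.6% were higher. When 1 library was left out, 6 to 8 members were higher and 17 to 18 lower. In SIRT6-tg mice these ranges were 11 to 15 higher and 14 to 15 lower. Of 1568 values without 1 library, 23 lost their call, among them Sult2a8 (8 fits), Ugt2b36 (4), Gstt2 (2), Gstm2 (2) and the Gstt3 difference (7). In comparisons of 2 groups, these values and the 28 fits named above include fits without a library of the other groups. Same-numbered libraries were not shown to be paired (correlations of deviations -0.345 to 0.328, 12 of 42 over 0.1), and only 3 libraries matched best with their own number. With the replicate number as a block, 13 members were higher and 3 lower in males and the difference between the sexes had 1 lower (Ugt1a9). Between the sexes in WT mice the block gave 8 higher and 16 lower, with Sult2a3 (adjusted p = 0.0616) and Gsto2 no longer called. The fit without the 3 libraries that stood apart was added after the data had been seen. The cause of these changes was not tested. Depth limits the 8 members at or near 0 in males.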
